A study of Homo sapiens with 16 samples.

Results

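POU4F2, ADAMTS19 and SERTM2 are 3 of the 26410 genes with values in all 16 libraries of this RNA sequencing study of SH-SY5Y neuroblastoma cells. They were chosen by name, with the results known, because their RNA was low in the scrambled control (Scr) clones and higher in the clones labelled TRPM2 KO. The contrast between those groups therefore chose the genes, and their values in it are a description without a test. The response to doxorubicin within each kind of clone, and the comparison of clones of the same kind, were not used to choose them and were tested.

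POU4F2 (also called Brn3b) is a POU-domain transcription factor known for driving the differentiation of retinal ganglion cells and for its role in sensory neurons. ADAMTS19 encodes a secreted metalloprotease with thrombospondin motifs, of a family that cuts proteins of the extracellular matrix, and its loss is known to cause heart valve disease. SERTM2 encodes a small serine-rich protein with a transmembrane segment, about whose function little is known.

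SH-SY5Y is a human neuroblastoma line of the adrenergic, noradrenaline-producing type. All clones received a donor vector carrying GFP and puromycin resistance together with a Cas9 plasmid, which held a guide against TRPM2 in KO11 and KO28 and a scrambled guide in Scr13 and Scr16, and all were grown from single cells after puromycin selection. Each clone was sequenced in duplicate from untreated cells and from cells kept for 24 h in doxorubicin, a topoisomerase II poison that damages DNA, which gives 4 libraries per guide and treatment. The dose is 0.3 µM in the sample labels and 3 µM in the series' design text. With 2 clones per guide, the genotype and the clones that carry it cannot be told apart, and the p-values measure the spread between these libraries. Between 10481177 and 25086085 reads per library fell on genes, with a median of 16037366.5.

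TRPM2 (ENSG00000142185, GRCh38 chr21:44350163-44443081), the targeted ion channel gene, was measured first. Its level in the untreated libraries was 1.93 and 2.23 normalized CPM (counts per 1000000 reads, scaled to the normalized library size) in KO11, 1.41 and 2.19 in KO28, 0.118 and 0.115 in Scr13 and 0 in both Scr16 libraries. TRPM2 RNA was thus higher, not lower, in the untreated libraries labelled KO, with no overlap. The gene passed the filter on low values there (4 or more of the 8 libraries at 1 normalized CPM) only through those libraries, so no test is given. After doxorubicin the KO11 libraries held 1.22 and 1.83, KO28 1.37 and 0.658, Scr13 0.0594 and 0.0631, and Scr16 1.33 and 0.389. These groups overlapped, and the difference of 0.69 ± 0.333 (SE) on the log2(normalized CPM + 1) scale did not pass the test (limma, adjusted p = 0.249). The paper describes the KO as a deletion at the start of the coding sequence with a frameshift, checked by RT-PCR and Western blotting. Reads were summed over all exons, edited or not. This level therefore tells neither whether the gene was edited nor what protein was made. The groups are called libraries labelled KO below.

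POU4F2 (ENSG00000151615) lies at chr4:146638893-146642474 on the + strand of GRCh38, ADAMTS19 (ENSG00000145808) at chr5:129460265-129738683 on the + strand, and SERTM2 (ENSG00000260802) at chrX:111511662-111522399 on the + strand. The genes are thus on 3 chromosomes, and each is protein coding. Since they rose from low levels in the same clones, the sequences around the starts of POU4F2 and ADAMTS19 are shown, from 250 bases before to 50 bases after the RefSeq start on GRCh38.p14 (5′ to 3′, both on the + strand, chr4:146638643-146638942 and chr5:129460048-129460347). RefSeq sequences were matched for 2 of the 3 genes, and none is shown for SERTM2. Capitals mark the GC box, GGGCGG on either strand, the letters that SP family factors are known to bind:
POU4F2: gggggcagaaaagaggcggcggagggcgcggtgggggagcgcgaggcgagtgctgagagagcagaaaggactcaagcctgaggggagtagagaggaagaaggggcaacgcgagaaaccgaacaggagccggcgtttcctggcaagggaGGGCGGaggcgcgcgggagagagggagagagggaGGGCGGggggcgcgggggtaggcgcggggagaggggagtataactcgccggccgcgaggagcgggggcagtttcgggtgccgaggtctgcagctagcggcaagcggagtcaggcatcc
ADAMTS19: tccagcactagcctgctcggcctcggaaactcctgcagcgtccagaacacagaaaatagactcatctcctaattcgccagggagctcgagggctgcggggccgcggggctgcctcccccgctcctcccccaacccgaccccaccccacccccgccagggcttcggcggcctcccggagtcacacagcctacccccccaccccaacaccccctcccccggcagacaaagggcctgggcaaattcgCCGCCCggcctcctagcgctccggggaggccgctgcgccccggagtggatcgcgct

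Both promoters are rich in G and C. POU4F2 has 69.7% G or C and 30 CG dinucleotides, and ADAMTS19 has 70.7% and 25. The medians are 58.7% and 14 over 35116 promoters of the same length. Of all promoters, 78.9% have a lower share of G and C than POU4F2 and 81.2% a lower share than ADAMTS19. Fewer CG dinucleotides are found in 77.6% and 68.0%, so many promoters are as rich. The GC box occurs 2 times in POU4F2 and 1 time in ADAMTS19, and 45.0% of all promoters hold it on either strand. The letters of the TATA box, TATAAA, present in 11.5% of promoters, are on neither strand of these windows. The same holds for the CCAAT box, which 34.6% of promoters hold, for the E-box CACGTG of MYC and MAX, which 7.26% hold, and for the cAMP response element TGACGTCA, which 1.85% hold. A match is a description of letters and no evidence of binding.

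POU4F2 was present in every library labelled KO and low in most Scr libraries. Untreated KO11 held 19.6 and 18.4 normalized CPM, and untreated KO28 held 13.4 and 19.8. Untreated Scr13 held 1.89 and 1.96, and Scr16 held 4.17 and 0.398. The lowest value labelled KO was above the highest Scr value, and the means of 17.8 ± 2.99 (SD, n = 4) and 2.11 ± 1.56 (SD, n = 4) stood 8.45-fold apart, or 2.73 on the log2 scale with 1 added. After doxorubicin KO11 held 10.5 and 9.51, KO28 held 12.8 and 10.9, Scr13 held 0.653 and 1.39, and Scr16 held 0 and 0.974. Again the groups did not overlap, with means of 10.9 ± 1.39 and 0.754 ± 0.586 (SD, n = 4 each), 14.5-fold apart.

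ADAMTS19 had the largest difference of all 14364 genes tested in untreated cells on that scale, which is a description of the contrast that chose it. Untreated KO11 held 27.4 and 24.0 normalized CPM and KO28 held 24.3 and 25.8, whereas Scr13 held 1.53 and 3.92 and Scr16 held 4.66 and 0.454. The libraries labelled KO lay close together and well above the Scr libraries. Their means were 25.4 ± 1.55 and 2.64 ± 1.98 (SD, n = 4 each), a 9.61-fold difference (3.05 on the log2 scale with 1 added). After doxorubicin KO11 held 28.0 and 28.2, KO28 held 29.8 and 23.7, Scr13 held 2.61 and 3.15, and Scr16 held 0 and 0.974. The means were then 27.4 ± 2.60 and 1.69 ± 1.46 (SD, n = 4 each), 16.3-fold apart, without overlap.

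SERTM2 was the least abundant of the 3 genes and the nearest to absent in the controls. Untreated KO11 held 9.26 and 8.91 normalized CPM and KO28 held 7.24 and 4.59, against 0.315 and 0 in Scr13 and 0.184 and 0.17 in Scr16. The 4 untreated Scr libraries together held 14 reads and the 4 untreated libraries labelled KO held 487. Their means of 7.50 ± 2.13 and 0.167 ± 0.129 (SD, n = 4 each) were 44.8-fold apart. After doxorubicin KO11 held 8.57 and 8.50, KO28 held 5.82 and 5.20, Scr13 held 0.0594 and 0.126, and Scr16 held 0 and 0.325. Here 445 reads stood against 8, and the means of 7.03 ± 1.77 and 0.127 ± 0.141 (SD, n = 4 each) were 55.1-fold apart without overlap. Of those 8 reads 5 were in Scr16 replicate 2, and without that library the fold was 113.6.

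In both treatments 3 of 3 genes were higher in the libraries labelled KO with no overlap between the groups, which was so for 4.29% of the 14364 genes tested in untreated cells and 6.76% of the 14572 tested after doxorubicin. Because this contrast chose the genes, nothing is read from that count. All 3 passed the filter on low values, SERTM2 only through the libraries labelled KO. In bulk RNA, fewer cells with the RNA and less RNA per cell cannot be told apart. The plot by clone shows these levels.

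**Figure D1:**
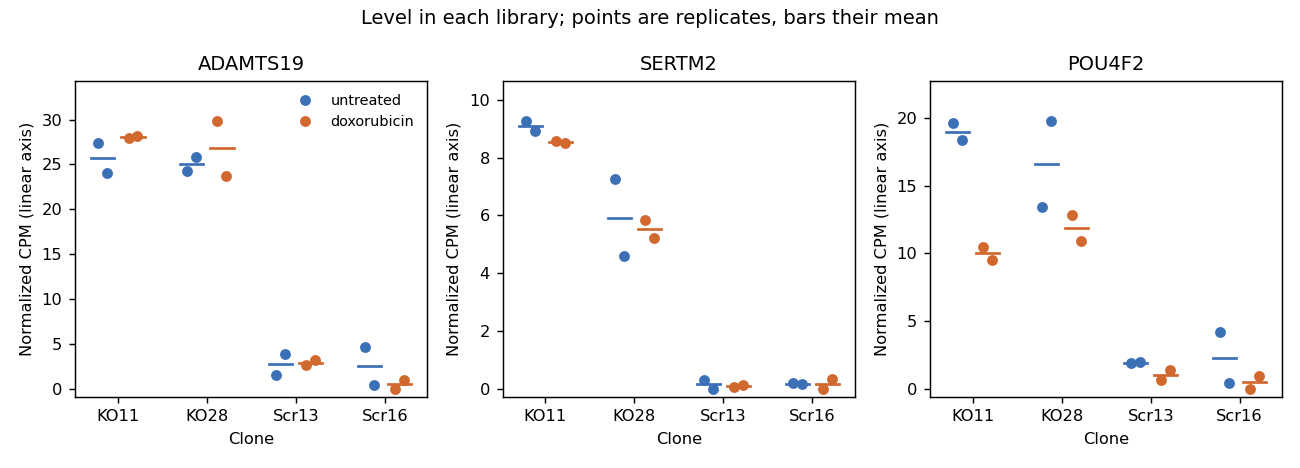
Normalized CPM of ADAMTS19, SERTM2 and POU4F2 (y axis, linear) in each clone (x axis), with untreated libraries in blue and doxorubicin libraries in orange; points are replicate libraries and bars their mean. The KO11 and KO28 points lie above every Scr13 and Scr16 point for each gene, and POU4F2 is lower after doxorubicin in both clones labelled KO.

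The controls were not uniform. In untreated Scr16, replicate 1 held 76 reads of ADAMTS19 and 68 of POU4F2, and replicate 2 held 8 and 7. SERTM2 did not share this gap between the 2 libraries, with 3 reads in each. In the doxorubicin libraries of Scr16, replicate 1 held 0 reads of each of the 3 genes, which allows up to 0.285 normalized CPM at a floor of 3 reads (counting error only), and was the shallowest library of the series with 10481177 reads. Replicate 2 held 15 reads of ADAMTS19, 15 of POU4F2 and 5 of SERTM2.

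The order of POU4F2 and ADAMTS19 was clear only after doxorubicin when levels were set per kilobase of exon in GENCODE 29 (3144 bases for POU4F2, 5408 for ADAMTS19, 4758 for SERTM2). In untreated libraries labelled KO, POU4F2 averaged 5.66 normalized CPM per kilobase, ADAMTS19 4.69 and SERTM2 1.58. POU4F2, between 4.27 and 6.29, overlapped ADAMTS19, between 4.44 and 5.06, so these neighbours in the order were within their spread, whereas SERTM2 reached no more than 1.95. After doxorubicin ADAMTS19 led with 5.07 (4.39 to 5.51), ahead of POU4F2 with 3.48 (3.03 to 4.08) and SERTM2 with 1.48 (1.09 to 1.80), and none of the ranges touched. Over whole genes, the ratio of ADAMTS19 to POU4F2 ran from 1.31 to 1.81 in untreated libraries labelled KO and from 2.17 to 2.97 after doxorubicin.

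POU4F2, the transcription factor, was lower after doxorubicin in the clones labelled KO, and the other 2 genes did not pass the test. POU4F2 fell from 17.8 ± 2.99 to 10.9 ± 1.39 normalized CPM (SD, n = 4 each), to 0.615 of its untreated level, with no overlap between treatments. With the clone as a term, the log2 difference was -0.65 ± 0.168 (SE, 95% interval -0.99 to -0.30, limma, adjusted p = 0.00692). It was lower in both clones, from a mean of 19.0 to 10.0 in KO11 and from 16.6 to 11.9 in KO28. Of 14513 genes tested, 8.35% were called lower after doxorubicin and 8.79% had treatments that did not overlap in that direction. The call held in 18 of 18 alternatives, with adjusted p between 0.00109 and 0.0429.

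ADAMTS19, the protease, went from 25.4 to 27.4 normalized CPM with doxorubicin in the same clones, a log2 difference of 0.11 ± 0.122 (SE, 95% interval -0.15 to 0.36, adjusted p = 0.61). SERTM2 went from 7.50 to 7.03, a log2 difference of -0.07 ± 0.199 (95% interval -0.48 to 0.34, adjusted p = 0.853). The intervals are those of the difference on the log2 scale with 1 added, and a p that misses the threshold does not show that levels were equal.

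In the Scr clones, where 12.3% of 14378 genes were called after doxorubicin, neither of the 2 genes that could be tested passed. POU4F2 was at 2.11 normalized CPM untreated and 0.754 with the drug, a log2 difference of -0.75 ± 0.377 (SE, 95% interval -1.54 to 0.04, adjusted p = 0.221). Its means without and with the drug were 1.92 and 1.02 in Scr13 and 2.29 and 0.487 in Scr16. ADAMTS19 differed by -0.45 ± 0.404 (95% interval -1.29 to 0.40, adjusted p = 0.528). Its means were 2.73 and 2.88 in Scr13 and 2.56 and 0.487 in Scr16, where the untreated value rests on replicate 1. SERTM2 was under the filter in these clones and was not tested. Whether POU4F2 responded differently in the clones labelled KO and in the Scr clones was not tested.

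Between the clones labelled KO, SERTM2 was lower in KO28 than in KO11 without passing the test. SERTM2 averaged 8.81 ± 0.347 normalized CPM over the 4 KO11 libraries and 5.72 ± 1.14 over the 4 KO28 libraries (SD), with no overlap, as for 1.78% of genes in that direction. The log2 difference of -0.56 ± 0.199 (SE, 95% interval -0.97 to -0.15) had an adjusted p of 0.327 in limma and an unadjusted p of 0.00909. KO28 minus KO11 was 0.01 ± 0.168 for POU4F2 (95% interval -0.34 to 0.35, adjusted p = 0.993) and -0.05 ± 0.122 for ADAMTS19 (-0.31 to 0.20, adjusted p = 0.917). Only 0.138% of genes were called between these clones.

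Between the control clones 0.0348% of genes were called. Scr16 minus Scr13 was -0.31 ± 0.377 for POU4F2 (95% interval -1.10 to 0.48, adjusted p = 0.904) and -0.88 ± 0.404 for ADAMTS19 (-1.73 to -0.04, adjusted p = 0.709), and SERTM2 was under the filter. With 1 library left out, the difference of ADAMTS19 ran from -1.39 to -0.568. The plot of differences shows these together with the responses to doxorubicin.

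**Figure D2:**
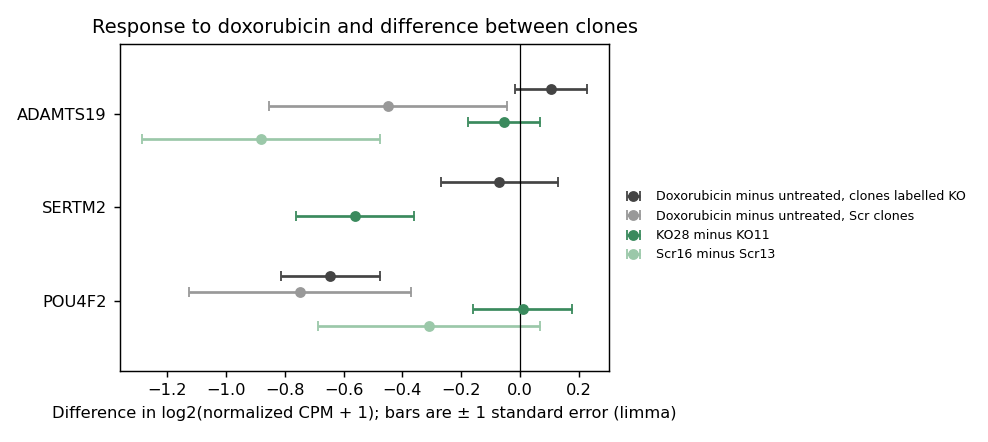
Differences in log2(normalized CPM + 1) (x axis) for each gene (y axis), with bars of 1 standard error from limma; black and grey are doxorubicin minus untreated in the clones labelled KO and the Scr clones, dark and light green are KO28 minus KO11 and Scr16 minus Scr13. POU4F2 in the clones labelled KO, at -0.65, is the point whose adjusted p passed 0.05, and SERTM2 has no points for the Scr clones because it was not tested there.

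Other genes of the POU family were mostly low. Of 14 listed, 10 had values, and 5 passed the filter in untreated cells and 6 after doxorubicin. POU3F3 passed it only through the libraries labelled KO, so no test is given for it. Of the others, 0 of 4 were called in untreated cells, where 4.84% of all genes tested were called (2.3% higher, 2.54% lower). After doxorubicin 0 of 5 were called, beside 8.69% of all genes (4.52% higher, 4.17% lower). POU3F3, a factor of developing brain and kidney, held 1.63 to 3.35 normalized CPM in untreated libraries labelled KO and 0 to 0.284 in Scr. After doxorubicin it was 1.77 to 1.98 against 0 to 0.584. The median log2 difference of the other POU genes tested was 0.02 untreated and -0.17 after doxorubicin, against -0.01 and 0.01 over all genes. The closest relatives of POU4F2 stayed near the floor, POU4F1 at no more than 0.661 and POU4F3 at no more than 0.26 normalized CPM in any library.

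Of genes known as partners or targets of POU4F factors in retinal ganglion and sensory neurons, those called were lower in the libraries labelled KO. Others had positive differences that did not pass the test. Of 32 described here, 28 had values and 17 were tested. In untreated cells 0 were called higher and 3 lower in the libraries labelled KO, beside 2.3% and 2.54% of all genes, with a list median of 0.09 against -0.01. These were SNAP25, a protein of synaptic vesicle fusion (-0.53 ± 0.0669, SE, adjusted p = 2.43e-05), the survival gene BCL2 (-0.36 ± 0.0786, adjusted p = 0.00646) and the growth cone gene GAP43 (-0.35 ± 0.0875, adjusted p = 0.0205). After doxorubicin 2 were called lower, beside 4.17% of all genes and with a median of -0.03 against 0.01, namely SNAP25 (-0.63 ± 0.0908, adjusted p = 5.47e-05) and GAP43 (-0.35 ± 0.0921, adjusted p = 0.0168). The call of GAP43 was lost in 6 of 21 alternatives untreated and in 8 of 21 after doxorubicin, and that of BCL2 in 3 of 21. In untreated cells limma put 10 of 17 at an unadjusted p under 0.05. Of these, those not called had positive differences, from 0.13 ± 0.0641 (SE) for INA to 0.76 ± 0.296 for RBPMS. After doxorubicin 8 of 17 were under it, with differences of both signs among those not called.

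With doxorubicin in the clones labelled KO, 7 of the 17 partners and targets were called lower and 1 higher, beside 8.35% and 11.3% of all genes and with a list median of -0.20 against 0.02. The falls included SOX11 (-0.75 ± 0.0756, SE, adjusted p = 3.32e-08), EBF1 (-0.69 ± 0.189, adjusted p = 0.0103), CDK4 (-0.43 ± 0.0786, adjusted p = 0.000211) and ISL1 (-0.38 ± 0.0729, adjusted p = 0.000402). SOX11, EBF1 and ISL1 are transcription factors of developing neurons and CDK4 is a kinase of the cell cycle. GAP43, ABLIM1 and INA fell by less, by 0.33, 0.23 and 0.20. The transcription factor KLF7 rose by 0.25 ± 0.0716 (adjusted p = 0.0151). In the Scr clones, where POU4F2 was low, 3 of 17 were called lower and 1 higher, beside 5.24% and 7.1% of all genes. SOX11 (-0.33 ± 0.0695, adjusted p = 0.00398), GAP43 (-0.33 ± 0.091, adjusted p = 0.0235) and ISL1 (-0.27 ± 0.0831, adjusted p = 0.0406) fell there too, and KLF7 rose (0.25 ± 0.0715, adjusted p = 0.0268). Whether the list responded differently in the 2 kinds of clone was not tested.

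Markers of sensory and retinal ganglion neurons gave 2 tested genes of 6 with values and 7 described here, of which 1 was called lower in each treatment, beside 2.54% of all genes untreated and 4.17% after doxorubicin. PRPH, the intermediate filament peripherin, was lower in the libraries labelled KO, with 0 to 1.09 normalized CPM untreated against 2.70 to 10.6 in Scr (-2.24 ± 0.321, SE, adjusted p = 0.000108), and likewise after doxorubicin (-2.50 ± 0.274, adjusted p = 1.84e-06). The other, the RNA-binding protein gene RBPMS, had positive differences that did not pass the test, 0.76 ± 0.296 (adjusted p = 0.20) and 0.68 ± 0.301 (adjusted p = 0.205). RBPMS is also counted in the list of partners and targets above.

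Other ADAMTS proteases were called in both directions, and 6 of 12 tested untreated and 7 of 12 after doxorubicin were not called. Of 18 listed besides ADAMTS19, 16 had values and 12 were tested, with 4 called higher and 2 lower in untreated libraries labelled KO, beside 2.3% and 2.54% of all genes, and 2 higher and 3 lower after doxorubicin, beside 4.52% and 4.17%. The list medians were 0.10 and 0.29. In untreated cells ADAMTS3, which trims procollagen and activates VEGFC, was higher by 1.19 ± 0.213 (SE, adjusted p = 0.00126), the versican-cutting ADAMTS4 by 0.86 ± 0.217 (adjusted p = 0.0219), ADAMTS17 by 0.70 ± 0.149 (adjusted p = 0.00577) and ADAMTS7 by 0.51 ± 0.113 (adjusted p = 0.00884). ADAMTS9 (-0.68 ± 0.0678, adjusted p = 1.53e-06) and ADAMTS1 (-0.52 ± 0.086, adjusted p = 0.000579), which also cut versican, were lower.

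After doxorubicin ADAMTS3 (1.40 ± 0.417, SE, adjusted p = 0.0371) and ADAMTS4 (0.55 ± 0.152, adjusted p = 0.0236) were higher, and ADAMTS9 (-0.61 ± 0.0691, adjusted p = 2.73e-06), ADAMTS1 (-0.57 ± 0.0807, adjusted p = 4.46e-05) and ADAMTS20 (-1.14 ± 0.323, adjusted p = 0.0278) lower. ADAMTS1 and ADAMTS9 kept their calls in 21 of 21 alternatives in each treatment. In untreated cells the call of ADAMTS7 was lost in 3 of 21 and that of ADAMTS17 in 2 of 21. ADAMTS4 lost its call in 7 of 21 alternatives untreated and 9 of 21 after doxorubicin, ADAMTS3 in 11 of 18 and ADAMTS20 in 10 of 18 after doxorubicin. The related ADAMTS-like proteins, which lack the protease domain, gave 0 calls of 2 tested (7 listed, 6 with values) in untreated cells by limma, edgeR and DESeq2, with 0 at an unadjusted p under 0.05 and a median of -0.02, beside 4.84% of all genes called. After doxorubicin 1 of 3 was called, THSD4, a fibrillin-binding protein (0.88 ± 0.271, adjusted p = 0.0444, lost in 11 of 21 alternatives), beside 4.52% of all genes called higher and with a median of 0.14.

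**Figure D3:**
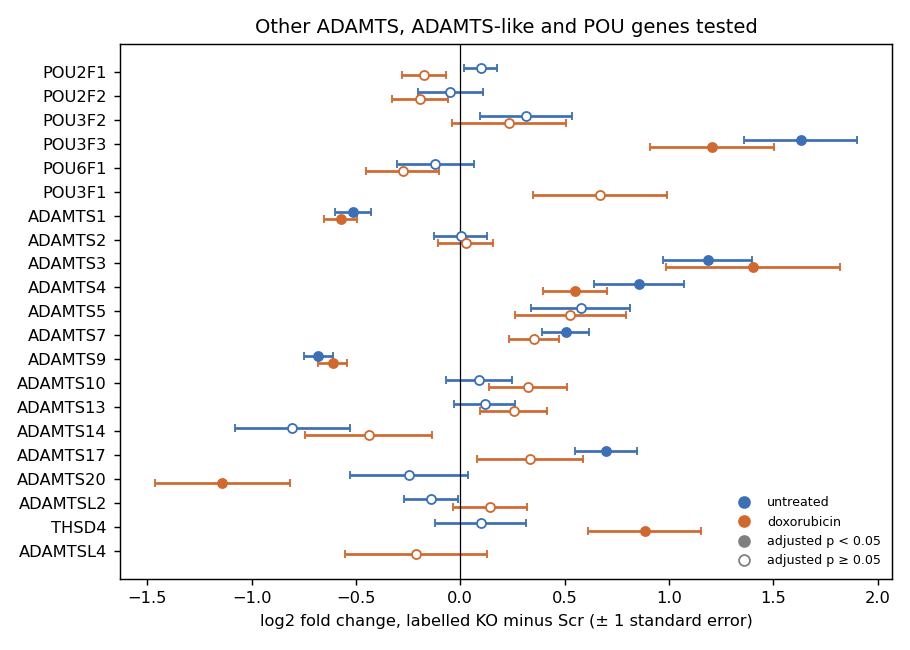
log2 fold change between libraries labelled KO and Scr libraries (x axis, on log2(normalized CPM + 1)) for the other ADAMTS, ADAMTS-like and POU genes tested (y axis), untreated in blue and doxorubicin in orange, with bars of 1 standard error and filled points where the limma adjusted p is under 0.05. POU3F3, which passed the filter only through the libraries labelled KO, at 1.63 and ADAMTS3 at 1.19 lie to the right in untreated cells, and ADAMTS9 at -0.68 and ADAMTS1 at -0.52 lie to the left.

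Some substrates of such proteases were called higher in the libraries labelled KO in both treatments, and some inhibitors after doxorubicin. The share of all genes called higher was 2.3% untreated and 4.52% after doxorubicin. Of 6 inhibitors listed, 5 had values and 4 were tested. A2M, the broad protease inhibitor alpha-2-macroglobulin, passed the filter in untreated cells only through the libraries labelled KO, so no test is given there. Its untreated means were 3.47 ± 1.64 in those libraries and 0.315 ± 0.351 normalized CPM in Scr (SD, n = 4 each). Of the other 3, 0 were called, with a median of 0.14. After doxorubicin A2M (2.34 ± 0.296, SE, adjusted p = 1.14e-05) and TIMP1 (0.53 ± 0.149, adjusted p = 0.0278, lost in 9 of 21 alternatives) were called higher, with a median of 0.33. Of 8 matrix substrates listed, 6 had values, 5 were tested and 2 were called higher in each treatment, with medians of 0.31 and 0.41. The proteoglycan versican (VCAN) was higher by 1.92 ± 0.248 (adjusted p = 3.26e-05) untreated and 1.93 ± 0.231 (adjusted p = 5.7e-06) after doxorubicin, and fibronectin (FN1) by 1.55 ± 0.272 (adjusted p = 0.000965) and 2.14 ± 0.265 (adjusted p = 8.77e-06). The call of FN1 in untreated cells was lost in 3 of 21 alternatives. FN1 was also called higher in KO28 than in KO11 by limma (0.59 ± 0.122, adjusted p = 0.043), beside 0.138% of all genes called. Neither edgeR nor DESeq2 made that call. SERTM1, the relative of SERTM2, reached at most 1.08 normalized CPM and was not tested.

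Some genes near the 3 genes were higher in the same libraries, and 0 of the tested genes within 1 Mb were called lower. Around SERTM2, GENCODE lists 22 genes, 8 had values and 6 passed the filter, CAPN6 only through the libraries labelled KO. Apart from CAPN6, DCX was called higher in untreated cells, and DCX and PAK3 after doxorubicin. The shares of all genes called higher were 2.3% and 4.52%. CAPN6, a calpain-like protein of microtubules that lies 241139 bases before SERTM2, held 4.85 and 4.04 normalized CPM in untreated KO11 and 4.56 and 2.33 in KO28, and 0 in the 4 Scr libraries. Against a floor of 3 reads in the shallowest of those libraries, CAPN6 was at least 21.4-fold higher. After doxorubicin CAPN6 was at 13.6 and 10.6 in KO11, 6.28 and 4.72 in KO28, 0 in Scr13, and 0 and 0.26 in Scr16. Because of how it passed the filter, no test is given for it.

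DCX, doublecortin, a microtubule protein of migrating neurons, lies 99233 bases before SERTM2. It held 169 to 238 normalized CPM in the 4 untreated libraries labelled KO and 89.0 to 136 in Scr, without overlap, a 1.94-fold difference (log2 0.95 ± 0.114, SE, adjusted p = 1.27e-05). After doxorubicin DCX was at 160 to 199 against 79.1 to 111, 1.85-fold (0.89 ± 0.101, adjusted p = 3.05e-06). PAK3, a kinase of neurons that lies before CAPN6, differed by 0.29 ± 0.119 untreated (adjusted p = 0.237) and was called higher after doxorubicin by 0.40 ± 0.108 (adjusted p = 0.019, lost in 7 of 21 alternatives). The nearest annotated genes are the pseudogenes HMGB1P12, 76638 bases before, and ENSG00000229939, 96409 bases after, and neither was tested.

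Around ADAMTS19, 16 genes are annotated, 4 had values and 2 were tested. ISOC1, an isochorismatase domain protein 346237 bases before ADAMTS19, was called higher in both treatments, beside 2.3% and 4.52% of all genes. It held 78.3 to 97.3 normalized CPM in untreated libraries labelled KO and 36.9 to 62.9 in Scr (log2 0.84 ± 0.122, SE, adjusted p = 0.000121). After doxorubicin it held 75.5 to 87.6 against 26.7 to 40.4 (1.30 ± 0.12, adjusted p = 2.34e-07). The nearest gene after ADAMTS19, MINAR2, 9396 bases away, stayed at or under 0.441 normalized CPM, and the nearest before, MIR4460, is 63118 bases away. The antisense RNA ADAMTS19-AS1 overlaps the start of ADAMTS19 on the other strand, held between 0 and 1.70 normalized CPM in libraries labelled KO and between 0 and 0.368 in Scr, and was not tested. The kit was directional, the use of strand in counting is not given in the sources used here, and reads of the 2 genes cannot be told apart with certainty.

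Around POU4F2, 33 genes are annotated, 12 had values, and 1 of 7 was called higher in untreated cells and 1 of 8 after doxorubicin, beside 2.3% and 4.52% of all genes. EDNRA, the endothelin receptor type A, lies 838443 bases after POU4F2. It held 11.3 to 15.8 normalized CPM in untreated libraries labelled KO and 4.38 to 12.5 in Scr, which overlapped (log2 0.87 ± 0.237, SE, adjusted p = 0.0367), and 8.00 to 11.2 against 1.70 to 7.99 after doxorubicin (1.14 ± 0.284, adjusted p = 0.0115). The call was lost in 10 of 21 alternatives untreated, with adjusted p between 0.00371 and 0.272, and in 4 of 21 after doxorubicin. The nearest genes are RNU1-44P, 58683 bases before, and TTC29, 64164 bases after, and neither was tested. DCX and ISOC1 kept their calls in 21 of 21 alternatives in each treatment.

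**Figure D4:**
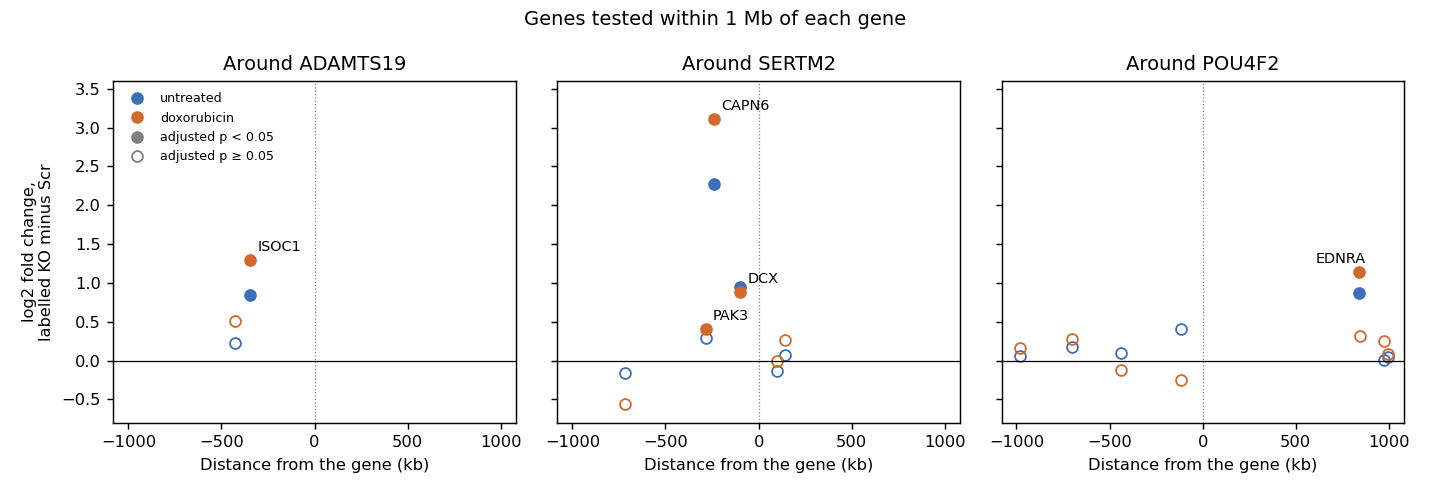
log2 fold change between libraries labelled KO and Scr libraries (y axis) of the tested genes within 1 Mb of each gene, by distance from it in kilobases (x axis, negative before its start), untreated in blue and doxorubicin in orange, filled where the limma adjusted p is under 0.05. CAPN6 and DCX stand above 0 in both treatments on the side before SERTM2, and ISOC1 before ADAMTS19. CAPN6 passed the filter only through the libraries labelled KO.

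The genes whose levels over the 16 libraries were most like those of the 3 genes were MSN, SEMA3A, MGP, LUM and CAPN6, beside POU4F2 and ADAMTS19 themselves. Likeness was the root mean square difference of log2(normalized CPM + 1) after centring each gene, over 15325 genes, and it is dominated by the contrast that chose the genes. POU4F2 was nearest to MSN (0.449), then ADAMTS19 (0.511) and SEMA3A (0.529), against a median of 1.51. ADAMTS19 was nearest to POU4F2 (0.511), MGP (0.575) and LUM (0.663), against 1.78. SERTM2 was nearest to CAPN6 (0.40), MGP (0.43) and LUM (0.438), against 1.45.

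MSN encodes moesin, which ties actin to the membrane, and held 38.5 to 48.1 normalized CPM in untreated libraries labelled KO and 6.36 to 9.04 in Scr. SEMA3A, a secreted axon guidance factor, held 4.09 to 12.9 against 0.17 to 0.859. MGP, matrix Gla protein, an inhibitor of calcification, held 7.59 to 9.34 against 0.398 to 1.26. After doxorubicin MGP stood at 11.96 to 16.7 against 0 to 0.252, and SEMA3A at 2.15 to 5.18 against 0 to 0.454. LUM, the collagen-binding proteoglycan lumican, held 8.24 to 12.6 against 0.511 to 3.15 untreated and 9.92 to 16.4 against 0.19 to 0.631 after doxorubicin.

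The labelled cell type was checked against its markers. The 9 adrenergic neuroblastoma markers described here had values. Their summed level lay between 7051 and 8322 normalized CPM in the 16 libraries, with DBH, STMN2 or HAND2 on top. In each library 1 or 2 of the 9 were under 1 normalized CPM. TH, a gene of noradrenaline synthesis, did not pass the filter on low values in either treatment and was not tested. Of 8 tested, GATA3, a transcription factor of sympathetic neurons, was called higher in untreated libraries labelled KO (0.32 ± 0.0857, SE, adjusted p = 0.0344), beside 2.3% of all genes, with a median of 0.05. After doxorubicin limma and edgeR each called 0 of the 8 and DESeq2 called 1, with 3 at an unadjusted p under 0.05 in each, and the median was -0.11. The untreated call of GATA3 was lost in 9 of 21 alternatives.

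Most mesenchymal or fibroblast markers tested were called higher in the libraries labelled KO, and TWIST1 was called lower. Of 10 listed, 9 had values, and 6 of 9 tested untreated and 6 of 8 after doxorubicin were called higher in the libraries labelled KO, beside 2.3% and 4.52% of all genes. DCN in both treatments and LUM after doxorubicin passed the filter only through those libraries, and without them the counts were 5 of 8 and 4 of 6, with medians of 1.31 and 1.37 against -0.01 and 0.01 over all genes. The 6 were COL1A1, COL3A1, LUM, DCN, VIM and FN1. Their log2 differences in untreated cells ran from 1.10 ± 0.225 for VIM (SE, adjusted p = 0.00406) to 2.45 ± 0.282 for LUM (adjusted p = 8.71e-06). LUM reached 1 normalized CPM in 1 of the 4 untreated Scr libraries. The untreated calls were lost in 4 of 21 alternatives for COL3A1, in 3 of 21 each for VIM and FN1, in 2 of 21 for COL1A1 and in 2 of 14 for DCN. After doxorubicin the call of COL1A1 was lost in 2 of 21. In either direction, DESeq2 called 4 of the 9 markers tested untreated and limma 7. TWIST1, a transcription factor of mesenchyme, was lower in both treatments, by -0.53 ± 0.0766 (adjusted p = 0.00011) and -0.64 ± 0.0777 (adjusted p = 6.68e-06), beside 2.54% and 4.17% of all genes. FN1 is also on the list of matrix substrates, and LUM is among the genes most alike in pattern above.

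The summed level of the 9 markers was 960.5 and 842 normalized CPM in untreated KO11, 1139 and 1043 in KO28, 889 and 427 in Scr13, and 546 and 585 in Scr16. After doxorubicin it was 1098 and 868 in KO11, 1207 and 997 in KO28, 534 and 444 in Scr13, and 727 and 609 in Scr16. VIM led in the 8 libraries labelled KO and in untreated Scr13 replicate 1, with 302 normalized CPM there, and TWIST1 led in the other Scr libraries. The part of mesenchymal RNA in the levels of the 3 genes was not tested.

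**Figure D5:**
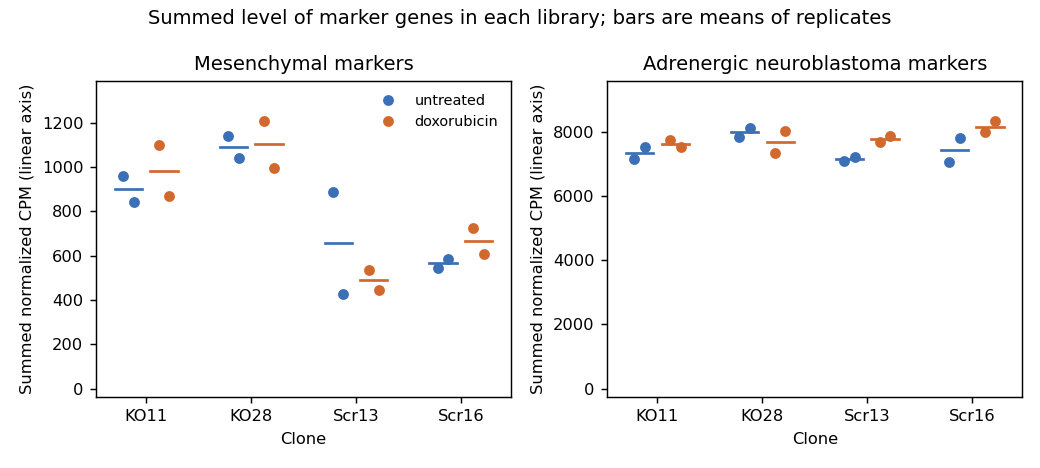
Summed normalized CPM (y axis, linear) of the mesenchymal markers (left) and adrenergic neuroblastoma markers (right) in each clone (x axis), untreated in blue and doxorubicin in orange; points are replicate libraries and bars their mean. The mesenchymal sum runs from 842 to 1207 in the libraries labelled KO and from 427 to 889 in the Scr libraries, and the adrenergic sum from 7051 to 8322 over all.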

How the data were processed

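Poly(A) RNA of SH-SY5Y clones was sequenced in 16 libraries. Per the labels, the authors used bcl2fastq, HISAT2 2.1.0, HTSeq and edgeR with GRCh38. The strand setting in counting is not given in the sources used here. The authors deposited 2 tables, untreated and doxorubicin, whose library columns hold a signal, reads divided by the normalized library size (normalized CPM). Whole reads were recovered for 100% of values within 0.001 of a whole number, and the factors lay between 0.974 and 1.03 and were nearer to TMM factors computed over all 16 libraries (largest log2 difference 0.0149) than to those computed within each table (0.0259). Columns of the authors' own KO-against-Scr comparison, namely log2 fold changes, deposited p-values and q-values and, as deposited, an order of genes, were not used. Every library column was assigned, with 0 left over.

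Differences were tested in R 4.3.3 by limma 3.58.1, with 1 added to the normalized CPM before log2 was taken and the prior variance allowed to follow abundance, over genes that reached 1 normalized CPM in 4 or more of the 8 libraries compared, with Benjamini-Hochberg adjustment over all genes tested and a threshold of 0.05. Doxorubicin comparisons had the clone as a term and clone comparisons the treatment. Fold changes on this scale understate the change of low genes. Passing only through 1 group means that no library of the other reached 1 normalized CPM. LUM untreated, and A2M and ADAMTS3 after doxorubicin, reached it in 4 libraries labelled KO and 1 Scr library. PRPH in both treatments and ADAMTS20 after doxorubicin reached it in 1 library labelled KO and 4 Scr libraries. The tests of these genes thus compare with a group mostly under the minimum. The script was tested on simulated data. A floor of 3 reads equals 0.118 to 0.285 normalized CPM. Gene names were found for 95.0% of identifiers and GENCODE 29 positions for 95.9%.

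The 3 genes, the lists (POU family, POU4F partners and targets, ADAMTS proteases, ADAMTS-like proteins, protease inhibitors, matrix substrates, SERTM family and 3 lists of cell type markers) and the tests were chosen with earlier results of these data known. Some list genes, called ones among them, are not reported here and were left out of the counts, medians and sums of their lists. Named genes are the 3 genes, TRPM2, list genes past the threshold (the 6 with the largest change where more passed), the nearest neighbours, other genes within 1 Mb past the threshold in KO against Scr, and the 3 genes most alike in pattern to each. ABLIM1, INA, KLF7 and TWIST1, and markers and relatives given by value, are exceptions, chosen once their values had been seen. Alternatives were pseudocounts of 0.1 and 0.5, no filter, a filter on all libraries, library size alone, DESeq2 1.42.0 size factors, edgeR 4.0.16 quasi-likelihood and DESeq2 tests on recovered reads, a replicate block, no clone term, and each library or clone left out.

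Replicate numbers did not pair the libraries. The deviations of same-numbered libraries correlated between -0.106 and 0.128.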

Additional observations from a re-analysis of the deposited data

How the results depend on the processing

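The fall of POU4F2 with doxorubicin in the clones labelled KO kept its direction and its call in 18 of 18 alternatives. The contrast between libraries labelled KO and Scr chose the 3 genes, so their direction in it is no test. The size of their difference in that contrast on the log2 scale depends on how values near 0 are handled. With a pseudocount of 0.1, SERTM2 was at 4.95 untreated and 5.14 after doxorubicin, POU4F2 at 3.36 and 4.22, and ADAMTS19 at 4.80 after doxorubicin. With a pseudocount of 0.5, SERTM2 was at 3.56 and 3.58 and POU4F2 at 3.34 after doxorubicin. edgeR's quasi-likelihood test put SERTM2 at 5.35 and 5.62 and POU4F2 at 3.78 after doxorubicin, and DESeq2 put them at 5.41, 5.69 and 3.79. After doxorubicin ADAMTS19 was at 4.33 without clone Scr13 and 2.87 without clone Scr16. Counts of genes called between libraries labelled KO and Scr were 368 without a filter, 330 without Scr13 and 327 without Scr16 untreated, and 510 without KO11 and 575 without KO28 after doxorubicin. Other clones left out gave 796 without KO11 and 536 without KO28 untreated, and 1202 without Scr13 and 1070 without Scr16 after doxorubicin. In the Scr clones doxorubicin gave 831 calls without a filter. KO28 against KO11 gave 10 calls with a pseudocount of 0.1, 10 by edgeR and 43 by DESeq2, and Scr16 against Scr13 gave 2, 2 and 7. Without a filter limma called 0 genes in each of these, with 1895 and 1446 at an unadjusted p under 0.05. Leaving out 1 library gave 508 to 678 calls for KO against Scr untreated and 814 to 1314 after doxorubicin, the lowest without KO11 replicate 1. For doxorubicin it gave 2049 to 2903 calls in the clones labelled KO and 1100 to 1739 in the Scr clones. Between clones it gave 3 to 91 calls for KO28 against KO11, the ends without KO28 replicate 1 untreated and with doxorubicin, and 1 to 32 for Scr16 against Scr13, the ends without Scr16 replicate 2 with doxorubicin and without Scr13 replicate 1 untreated. A replicate block gave 697 and 1365 calls for KO against Scr, 2948 and 2113 for doxorubicin, and 25 and 7 between clones, and changed no call of the 3 genes. The numbers are shared without pairing the libraries. Differences that missed the test turned sign in places. Without KO28, the untreated differences of THSD4 and TIMP1 were -0.161 and -0.014, and THSD4 was at -0.0037 without untreated Scr13 replicate 2 (up to 0.248 with another library left out). Without KO11, BCL2 after doxorubicin was at 0.033. With doxorubicin, SERTM2 was at 0.0386 in the clones labelled KO without untreated KO28 replicate 1 (range over libraries left out -0.185 to 0.0386), and ADAMTS19 at 0.0606 in the Scr clones without untreated Scr16 replicate 1 (-0.756 to 0.0606). Between clones, POU4F2 in KO28 against KO11 was at -0.0039 with library size alone and between -0.077 and 0.157 with 1 library left out. ADAMTS19 there was at 0.0131 without doxorubicin KO28 replicate 2 (-0.114 to 0.0131), and POU4F2 in Scr16 against Scr13 at 0.0294 without untreated Scr16 replicate 2 (-0.469 to 0.0294). Except where stated, the cause was not tested. Depth limits the Scr values, which rest on few reads, and SERTM2 could not be tested in the Scr clones.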

Other observations

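With doxorubicin in the clones labelled KO, 4 of 12 other ADAMTS proteases tested were called, beside 19.6% of all genes. Of the 12, 3 were called higher and 1 lower, beside 11.3% and 8.35% of all genes, with a median log2 difference of 0.07 against 0.02. Whether the list differed from all genes or from ADAMTS19 was not tested. ADAMTS7 rose by 0.86 ± 0.0949 (SE, limma, adjusted p = 1.77e-07), ADAMTS13, which cuts von Willebrand factor, by 0.63 ± 0.137 (adjusted p = 0.00159) and ADAMTS10 by 0.45 ± 0.148 (adjusted p = 0.032). ADAMTS17 fell by 1.00 on the log2 scale (SE 0.164, adjusted p = 6.63e-05). Of 2 ADAMTS-like proteins tested THSD4 rose (0.63 ± 0.203, adjusted p = 0.0286), of 4 protease inhibitors TIMP2 fell (-0.22 ± 0.078, adjusted p = 0.047), and of 5 matrix substrates the brain proteoglycan NCAN rose (0.36 ± 0.0988, adjusted p = 0.0103). In the Scr clones 1 of 13 ADAMTS proteases was called, ADAMTS7, which rose there too (1.01 ± 0.106, adjusted p = 3.26e-06), beside 7.1% of all genes higher and 5.24% lower. In the POU family limma called 0 of 5 tested genes in the clones labelled KO and 0 of 4 in the Scr clones, beside 19.6% and 12.3% of all genes.

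Of 8 adrenergic markers, the enzymes of noradrenaline and dopamine synthesis DBH (-0.36 ± 0.088, adjusted p = 0.00445) and DDC (-0.41 ± 0.0925, adjusted p = 0.00223) and the granule protein CHGA (-1.36 ± 0.445, adjusted p = 0.0311) fell with doxorubicin in the same clones, and the transcription factor HAND2 rose (0.21 ± 0.0729, adjusted p = 0.0411), 3 lower and 1 higher beside 8.35% and 11.3% of all genes. In the Scr clones 1 of 8 was called lower and 2 higher, beside 5.24% and 7.1%. DDC (-0.55 ± 0.0898, adjusted p = 0.000441) fell and HAND2 (0.31 ± 0.0637, adjusted p = 0.00345) rose there too, and STMN2 rose (0.26 ± 0.0683, adjusted p = 0.0174). Of 9 mesenchymal markers in the clones labelled KO, DCN rose (1.22 ± 0.253, adjusted p = 0.0009) and COL1A2 fell (-0.98 ± 0.297, adjusted p = 0.0205), 1 higher and 1 lower beside 11.3% and 8.35% of all genes. In the Scr clones 1 of 6 was called, TWIST1, which rose (0.22 ± 0.0653, adjusted p = 0.0308), beside 7.1% of all genes called higher.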
